A study of Mus musculus with 27 samples.

Results

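Intermediate filaments are the tough, rope-like polymers of the animal cytoskeleton and of the nuclear envelope. Vimentin (*Vim*) forms the type III filaments of mesenchymal and many blood cells, keratins pair a type I with a type II chain in epithelia, and lamins line the inside of the nuclear membrane. Vimentin filaments are known to be lost as erythroid cells mature, and the nuclear lamina is remodelled before the nucleus is expelled. The 7 genes described here were taken by symbol from the raw count tables of a study of transcriptional repressors in MEL cells, a mouse erythroleukaemia line that resembles erythroid progenitors (C88 clone): *Vim*, the type II keratin genes *Krt75* and *Krt8*, the type I keratin gene *Krt18*, the A-type lamin gene *Lmna* and the B-type lamin genes *Lmnb1* and *Lmnb2*. *Vim* and *Krt75* were chosen by their measured fold changes, which were among the strongest falls after knockdown (KD), so their values in the KD comparisons are a description and carry no test here. Of the 7 genes, 6 were listed in all 5 RNA-Seq tables, and *Krt18* was listed only in the *Cbfa2t3* KD and *Gfi1b* KD tables. Each table lists between 16465 and 18519 genes, and 5 of the 7 genes passed the filter on low counts in each of them, *Krt8* and *Krt18* being the exceptions.

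The study asked how the co-repressor ETO2 (encoded by *Cbfa2t3*) and its partners IRF2BP2, GFI1B and the histone demethylase LSD1 (encoded by *Kdm1a*) act in these cells, with 21 RNA-Seq libraries and 6 ChIP-Seq samples. Cells received lentiviral shRNA against *Cbfa2t3* (shRNAs sh2 and sh3, 2 libraries each), *Irf2bp2* (sh1, 2 libraries) or *Kdm1a* (2 libraries) and were sampled 72 h after transduction, beside control libraries labelled WT that received a non-targeting construct (2, 2 and 1). Cells labelled *Gfi1b* KD received siRNA against it (2 libraries against 2 labelled WT), and untreated cells were compared before and after 96 h of induced terminal differentiation (2 non-induced and 2 induced libraries). The labels do not name the inducer, and do not say which libraries came from separate cultures. Per the study's methods, replicates were independent biological samples.

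Depth was 44519414 to 57684583 counts in the shRNA libraries, where 3 counts equal 0.0519 to 0.0676 CPM (the count scaled to library size), and 9929311 to 19623105 counts in the *Gfi1b* KD and MEL differentiation libraries, where they equal 0.149 to 0.302 CPM. The targeted RNA was checked first. *Cbfa2t3* RNA fell from 400 and 427 CPM to 202 and 244 CPM with sh2 and to 123 and 145 CPM with sh3, *Irf2bp2* RNA was 116 and 120 CPM in the controls and 92.2 and 94.9 CPM in the KD, and *Kdm1a* RNA was 152 CPM in the control against 16.9 and 16.3 CPM in the KD. The *Irf2bp2* RNA change, -0.33 on the log2 scale (SE 0.08), was short of the limit of 0.5 used below. The *Gfi1b* RNA went against a label: it was 122 and 145 CPM in the libraries labelled WT, 216 CPM in the library labelled KD replicate 1 and 76.5 CPM in that labelled KD replicate 2. Of the erythroid markers, *Gata1* and *Tfrc* were abundant. *Hbb-b1*, an adult globin gene, was at 0 or not listed in at least 1 arm of 4 of the tables, the induced cells among them. The paper reports activation of globin genes in the *Cbfa2t3* and *Irf2bp2* KDs. Absence of globin RNA is therefore not read from the *Hbb-b1* values, and how reads of globin genes were counted was not tested. Markers of epithelial cells summed to 1.84 to 9.17 CPM and markers of lymphoid cells to at most 1.70 CPM.

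The position of the ETO2 and IRF2BP2 sites is given first, because the genes differ sharply in it. The authors' list holds 13229 sites on mm9, of which 1760 were read as bound by ETO2 only, 2730 as shared and 8739 as bound by IRF2BP2 only. The IRF2BP2 ChIP-Seq has no replicates. No ETO2 ChIP sample is in the series, and the study lists ETO2 ChIP-Seq among the published data it used. *Vim* (chr2:13495554-13504453, plus strand) had 6 sites within 100 kb of its annotated start, 5 of them within 20 kb. A shared site (chr2:13495052-13496236) spans the gene start, with its centre 262 bases upstream and a 7-fold enrichment of ChIP over control reads. IRF2BP2-only sites lay 452 bases into the gene in annotated UTR sequence (11.3-fold) and 1180 and 1552 bases into the gene in an intron (7-fold and 6.25-fold). The interval of the first overlaps that of the shared site. *Krt75* (chr15:101393776-101404335, minus strand) had no site within 100 kb, and neither did *Lmnb1* (chr18:56867467-56913078, plus strand). *Lmna* (chr3:88285070-88313878, minus strand) had 19 sites, the most of the 7 genes, of which 18 were IRF2BP2-only and 1 was shared. Several of these intervals abut each other, so 19 is a count of intervals and not of separate binding events. Several also lie nearest to the start of another gene, 1 of them 5 bases from it. The median enrichment was 10.25-fold over shared sites, 6.43-fold over IRF2BP2-only sites and 7.33-fold over all. Counting only sites at or above 7.33-fold left *Lmna* with 5 sites and *Vim* with 1, without its shared site. The shared *Lmna* site (chr3:88299114-88299657) lay in an intron 14545 bases from the start, with a 17-fold enrichment. An IRF2BP2-only site was centred 220 bases upstream of the *Lmna* start (13.5-fold). *Lmnb2* (chr10:80363948-80380990, minus strand) had 4 IRF2BP2-only sites, the nearest at 12207 bases upstream, in a coding exon of *Gadd45b* (6-fold). *Krt8* and *Krt18* are neighbours and shared the same 7 sites, 1 of them ETO2-only (10623 bases upstream of *Krt8*). The interval of this ETO2-only site overlaps that of an IRF2BP2-only site, so the classes do not mark separate stretches. Beside these counts, 60.8% of 22380 protein-coding genes had a site within 100 kb and 31.6% within 20 kb, with a shared site within 20 kb at 7.81%. The median over these genes was 1 site within 100 kb. Of the 7 genes, 5 had a site within 100 kb and the same number within 20 kb.

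**Figure D1:**
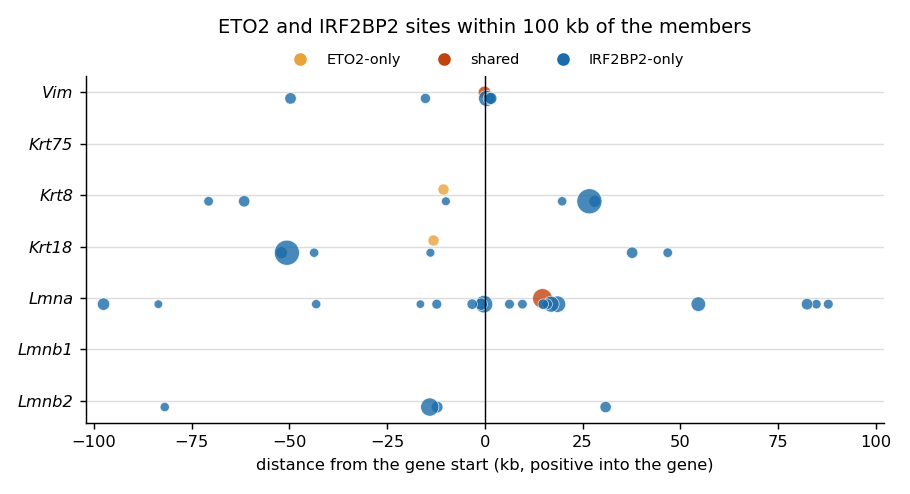
Sites of ETO2 and IRF2BP2 around the 7 genes. The x axis is the distance of the site's centre from the annotated gene start in kb (positive into the gene), each row is 1 gene, colour is the site class and the area of a point is proportional to the fold enrichment. The 1 shared site of *Vim* sits at the gene start, that of *Lmna* lies in an intron, and *Krt75* and *Lmnb1* have no site in the window.

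The sequences at the 2 shared sites and at the *Lmna* start differed in GATA motifs, and are shown for that reason. Each window of mm9 is centred on the centre of its site and written on the strand of the gene. Capitals mark GATA hexamers and the E-box hexamer. The GATA hexamers searched on both strands were AGATAA, the variant AGATAG, the form TGATAA and its variant TGATAG. The E-box searched was CAGCTG, the end of which can be the start of a GATA hexamer.
*Vim*, shared site at the start, chr2:13495142-13495441, plus strand: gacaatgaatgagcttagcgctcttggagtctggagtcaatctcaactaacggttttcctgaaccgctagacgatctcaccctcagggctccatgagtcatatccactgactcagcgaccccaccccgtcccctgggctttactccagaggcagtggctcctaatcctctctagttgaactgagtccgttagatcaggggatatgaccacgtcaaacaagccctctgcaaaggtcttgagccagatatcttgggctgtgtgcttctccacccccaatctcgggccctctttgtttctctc
*Lmna*, shared intronic site, chr3:88299183-88299482, minus strand: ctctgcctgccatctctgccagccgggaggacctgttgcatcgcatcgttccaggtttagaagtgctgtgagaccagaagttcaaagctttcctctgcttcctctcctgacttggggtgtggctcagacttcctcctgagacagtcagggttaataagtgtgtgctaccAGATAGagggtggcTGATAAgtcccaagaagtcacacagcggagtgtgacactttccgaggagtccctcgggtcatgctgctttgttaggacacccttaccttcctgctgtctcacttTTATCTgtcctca
*Lmna*, IRF2BP2-only site at the start, chr3:88313948-88314247, minus strand: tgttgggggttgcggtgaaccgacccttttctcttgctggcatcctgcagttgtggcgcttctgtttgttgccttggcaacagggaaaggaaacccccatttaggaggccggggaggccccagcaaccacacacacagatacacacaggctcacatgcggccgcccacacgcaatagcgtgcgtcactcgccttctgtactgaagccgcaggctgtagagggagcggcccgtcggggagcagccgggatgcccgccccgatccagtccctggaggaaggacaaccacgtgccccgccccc
The *Lmna* intronic window held 3 GATA hexamers and no CAGCTG. Neither motif was found in the *Vim* window or in the *Lmna* start window, and the whole 1185 bases of the *Vim* site held neither. For comparison, a GATA hexamer was present in 93.1% of the 2730 windows of shared sites, in 52.4% of the 8739 IRF2BP2-only windows and in 66.0% of all 13229 windows, and CAGCTG in 32.5% of all windows. Over the whole site at the *Lmna* start there was 1 GATA hexamer. These matches describe letters only.

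The levels of the 7 genes were compared per length, with the RPKM values the authors deposited. In the controls of the *Cbfa2t3* KD table, *Lmna* stood at 167 ± 26.1 RPKM (SD, n = 2), *Lmnb1* at 147 ± 0.750, *Vim* at 117 ± 0.106, *Lmnb2* at 22.7 ± 0.544 and *Krt75* at 0.200 ± 0.00696. The difference between *Lmna* and *Lmnb1* was smaller than the SD of *Lmna*, while the others stood apart by more than their SDs. In the non-induced cells of the MEL differentiation table, *Vim* came first, at 302 ± 74.2 RPKM (SD, n = 2), ahead of *Lmnb1* at 90.7 ± 6.76 and *Lmna* at 75.9 ± 12.3, and *Vim* also led in the *Gfi1b* controls at 327 ± 14.6. *Lmnb2* was below both other lamins in all 5 tables. *Krt8* had 0 to 6 counts and *Krt18* 0 or 1 count in any library that lists them, so the classical keratin pair of simple epithelia was at or near the limit of 3 counts throughout. A processed copy, *Krt8-ps*, could share reads with *Krt8*. The length implied by CPM over RPKM was 1.78 to 1.90 kb for *Vim* but varied from 1.82 to 2.38 kb for *Lmna*, so RPKM of *Lmna* carries a length that changed between libraries. All comparisons below therefore use CPM from the counts, scaled with trimmed means of M values (TMM).

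**Figure D2:**
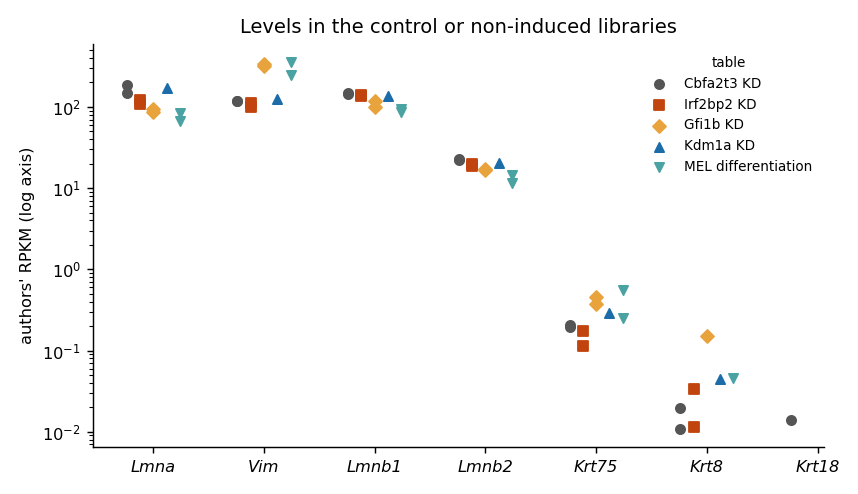
Level of each gene in the control or non-induced libraries, as the authors' RPKM on a log axis, 1 point per library and 1 marker per table. Libraries with 0 are left out. *Lmna*, *Vim* and *Lmnb1* lie between 67.2 and 355 RPKM, *Lmnb2* between 11.4 and 23.1 and *Krt75* between 0.113 and 0.555.

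*Vim* RNA was strongly lower in the *Cbfa2t3* and *Irf2bp2* KDs, lower in induced cells, and higher in the *Kdm1a* KD. In the *Cbfa2t3* KD table *Vim* stood at 213 CPM in both controls, at 26.6 and 36.4 CPM with sh2 and at 17.95 and 20.5 CPM with sh3. All 4 KD libraries lay far below both controls, in a table where the groups did not overlap in 37.8% of genes. The log2 fold change was -3.07 (SE 0.22), the third largest fall of 12537 genes tested, of which 5.74% were called (adjusted p of at most 0.05 and a log2 change of at least 0.5 in size), 2.99% as risen and 2.75% as fallen. sh3 was lower than sh2 by 0.71 on the log2 scale, beside a *Cbfa2t3* RNA that was lower with sh3 by 0.73. Whether the *Cbfa2t3* RNA difference bears on *Vim* was not tested. In the *Irf2bp2* KD table *Vim* was at 203 and 179 CPM in the controls and at 15.6 and 11.7 CPM in the KD. The log2 fold change was -3.81 (SE 0.12), the fifth largest fall of 12329 genes, of which 22.5% were called, and the groups did not overlap in 74.1% of genes. These ranks follow from how *Vim* was chosen and nothing is read from them.

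LSD1 depletion went with more *Vim* RNA. The single control held 230 CPM, the KD libraries 1009 and 1057, a log2 difference of 2.17 given with no test. Both KD libraries stood well above the control. In that table, 22.9% of 12628 genes differed by at least 0.5 on the log2 scale in the same direction in both KD libraries, 13.1% upwards and 9.80% downwards. In the *Gfi1b* KD table *Vim* was at 580 and 614 CPM in the controls, at 352 CPM in the library labelled KD replicate 1 and at 891 CPM in replicate 2. The 2 KD libraries thus lay on opposite sides of the controls, and the library below them is the one with the higher *Gfi1b* RNA. The log2 fold change was 0.06, without the library labelled KD replicate 1 it was 0.58, and without KD replicate 2 it was -0.78. The groups did not overlap in 39.2% of the genes of this table.

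The rule that chose the genes names the KDs and not MEL differentiation, which was tested, though the choice was made with earlier results of these data known. *Vim* was at 632 and 467 CPM in the non-induced libraries and at 127 and 4.25 CPM (1843 and 60 counts) in the induced ones. Both induced libraries were below both non-induced ones, in a table where the groups did not overlap in 67.3% of genes, and they also differed widely from each other. The log2 fold change was -3.06 (SE 0.86, edgeR's quasi-likelihood test, Benjamini-Hochberg adjusted p = 0.0176), in a table where 27.2% of 11713 genes were called and 14.8% fell. *Vim* was the 1 member called, and its counts in both arms were above the filter. The call was lost with DESeq2 (adjusted p = 0.190) and in edgeR without non-induced replicate 1 (0.119) or replicate 2 (0.0977). The log2 fold change was -7.02 without induced replicate 1 and -2.10 without induced replicate 2, fits with 1 induced library in which the non-induced libraries alone give the spread.

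**Figure D3:**
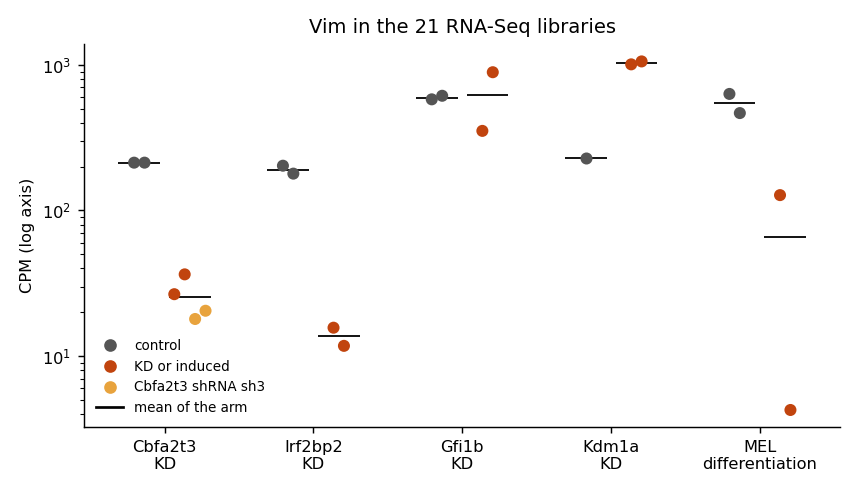
*Vim* in all 21 RNA-Seq libraries, as CPM on a log axis. Points are libraries, coloured by arm with the sh3 libraries of the *Cbfa2t3* KD apart, and short lines are arm means. KD libraries of *Cbfa2t3* (17.95 to 36.4 CPM) and *Irf2bp2* (11.7 and 15.6) lie below their controls, those of *Kdm1a* (1009 and 1057) above, and the induced libraries (127 and 4.25) lie below the non-induced ones.

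These are bulk libraries, in which fewer cells of a type and less RNA per cell cannot be told apart. The sums of marker genes of other cell types also differed between the groups. The summed CPM of 8 fibroblast markers (4 to 7 of them listed in a table) went from 50.5 to 58.4 in the *Cbfa2t3* controls to 8.25 to 20.5 in the KD, from 27.5 to 28.3 to 9.24 to 9.34 in the *Irf2bp2* KD, from 45.6 to 254 to 260 in the *Kdm1a* KD and from 130 to 237 to 4.25 to 63.1 on induction. Most of each control sum was *Thy1*, at 44.1 to 50.1 CPM in the *Cbfa2t3* controls. Without *Thy1* the sum went from 6.38 to 8.34 to 2.10 to 5.76 CPM in the *Cbfa2t3* KD, from 5.48 to 6.02 to 2.79 to 2.84 in the *Irf2bp2* KD, from 6.28 to 21.2 to 24.3 in the *Kdm1a* KD and from 22.3 to 23.6 to 3.62 to 10.7 on induction. *Pdgfrb*, a receptor of fibroblasts and pericytes, had the sign of *Vim* in these 4 tables, with log2 fold changes of -1.24 (not called, edgeR adjusted p = 0.0531), -1.55 (adjusted p = 5.27e-06), 1.89 (no test) and -1.67 (adjusted p = 0.0143). *Col1a1*, a collagen gene of the same list, had the opposite sign to *Vim* in the *Cbfa2t3* KD (0.69, adjusted p = 0.242, edgeR) and the *Irf2bp2* KD (0.36, adjusted p = 0.318) and the same sign in the *Kdm1a* KD (1.07, no test). The fibroblast-defining *Dcn* and *Lum* were at 0 or not listed in both arms of 4 tables, and *Lum* was at 0 or not listed in the *Irf2bp2* table too. In the *Gfi1b* table this sum was 190 to 197 in the controls and 184 to 420 in the KD. The summed CPM of 12 erythroid markers (11 or 12 listed) went from 1831 to 1854 to 2481 to 3016 in the *Cbfa2t3* KD, from 1562 to 1652 to 3994 to 4286 in the *Irf2bp2* KD and from 2108 to 2173 to 5078 to 5433 on induction, and was 1963 in the *Kdm1a* control against 1393 and 1402 in the KD. In the *Gfi1b* table it went from 1415 to 1540 in the controls to 1531 to 4040 in the KD. The sum of 7 megakaryocyte markers went from 403 to 416 to 483 to 596 CPM in the *Cbfa2t3* KD, from 370 to 426 to 808 to 849 in the *Irf2bp2* KD (6 of 6 tested called as risen, beside 10.1% of all genes), from 223 to 287 to 176 to 894 in the *Gfi1b* KD, from 339.9 to 286 to 349.7 in the *Kdm1a* KD and from 390 to 527 to 1172 to 1299 on induction. Of the 6 tested, 2 rose in the *Cbfa2t3* KD, 1 was higher (*Ppbp*, 2.75) and 1 lower (*Gp1bb*, -0.91) in the *Kdm1a* KD, and on induction *Itga2b* rose (2.07, edgeR adjusted p = 0.000264) while *Ppbp* went from 4.97 to 0.141 CPM, under 3 counts. Of the epithelial markers tested, 2 of 3 fell in the *Irf2bp2* KD (12.5% of all genes fell), 1 of 4 rose in the *Cbfa2t3* KD (2.99% rose), and 2 of 3 were higher in the *Kdm1a* KD (13.1% of all genes). Of the 2 on induction, *Epcam* went from a mean of 2.47 to 0.139 CPM, the latter below 3 counts, so no test is given. The other was not called, in a table where 14.8% of all genes fell. The sum of 8 myeloid markers, led by *Spi1*, went from 136 to 143 to 115 to 131 CPM in the *Cbfa2t3* KD, from 94.7 to 103 to 137 to 149 in the *Irf2bp2* KD, from 64.5 to 76.3 to 52.6 to 83.3 in the *Gfi1b* KD, from 134 to 195 to 201 in the *Kdm1a* KD and from 53.0 to 92.5 to 23.3 to 39.4 on induction. Of the 8 myeloid markers, 4 were listed in the *Gfi1b* table and 6 in the MEL differentiation table. The *Gfi1b* table listed 6 of the 7 megakaryocyte markers. The part of these cell states in the *Vim* values was not tested.

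*Krt75*, a type II keratin known from the hair follicle, was present at low counts and moved with *Vim* in sign. It had 34 and 36 counts in the *Cbfa2t3* controls, 3 and 4 with sh2, and 1 and 5 with sh3. The fitted log2 fold change was -3.33, a description of the values *Krt75* was chosen by. It had 28 and 18 counts in the *Irf2bp2* controls against 3 and 0 in the KD. The fitted log2 fold change of -3.78 rests on these few counts, and was -7.55 without KD replicate 1, which leaves the library at 0, and -2.73 without KD replicate 2. In the *Kdm1a* table the control had 47 counts and the KD libraries 260 and 220, a log2 difference of 2.27. All KD libraries of these 3 tables lay outside the range of their controls, beside 37.8%, 74.1% and 88.8% of all genes, and nothing is read from this. In the *Gfi1b* table the controls had 22 and 12 counts and the KD libraries 10 and 27, so the KD libraries again stood on either side. On induction *Krt75* went from 16 and 22 counts to 3 and 4, a fitted log2 fold change of -2.36 (SE 0.90) that is given with no test, since the gene passed the filter through the non-induced libraries alone. *Krt8* and *Krt18* stayed at the few counts given above in every arm, and no difference was detectable at this depth.

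*Lmna*, which encodes lamins A and C of the nuclear lamina, was at 340 and 314 CPM in the *Cbfa2t3* controls, at 287 and 271 CPM with sh2 and at 238 and 201 CPM with sh3. All 4 KD libraries were below both controls, as in 37.8% of all genes tested in which the groups did not overlap. The log2 fold change of -0.39 (SE 0.12) was not called (edgeR's quasi-likelihood test, Benjamini-Hochberg adjusted p = 0.0818, from 0.0225 with DESeq2 to 0.434 without control replicate 1). Taken alone against the controls, sh3 gave -0.58 and passed (adjusted p = 9.17e-05, edgeR), while sh2 gave -0.23 (adjusted p = 0.0313, edgeR), short of the fold limit. The *Lmna* level was lower with sh3 than with sh2 by 0.35 on the log2 scale (edgeR, adjusted p = 0.0160), a test in which 3.71% of genes were called with the limit of 0.5 that *Lmna* did not reach. Without sh3 replicate 2 this adjusted p was 0.138.

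In the *Irf2bp2* KD *Lmna* rose. *Lmna* was at 229 and 254 CPM in the controls and at 408 and 392 CPM in the KD, a rise of 0.73 on the log2 scale (SE 0.09, edgeR's quasi-likelihood test, Benjamini-Hochberg adjusted p = 4.26e-06). *Lmnb2*, a B-type lamin, rose with it, from 62.8 and 65.2 CPM to 96.9 and 92.1 CPM (log2 fold change 0.56, SE 0.08, adjusted p = 2.74e-05, edgeR). Both KD libraries were above both controls for each gene, in a table where the groups did not overlap in 74.1% of genes. Of the 3 lamins, 2 thus rose, beside 10.1% of all genes tested that rose. *Lmnb1*, the other B-type lamin, was at 389 and 396 CPM in the controls and at 371 and 381 CPM in the KD, a log2 fold change of -0.06 (95% interval -0.24 to 0.12, adjusted p = 0.578, edgeR).

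The 2 KD effects were then compared in 1 fit over both tables, each against its own controls, a test added after the values had been seen. The effect on *Lmna* was higher in the *Irf2bp2* KD than in the *Cbfa2t3* KD by 1.12 on the log2 scale (SE 0.18, edgeR's quasi-likelihood test, Benjamini-Hochberg adjusted p = 0.00101) and that on *Lmnb2* by 0.58 (SE 0.09, adjusted p = 0.000830). In this test, 14.4% of 12719 genes were called. The effects on *Lmnb1* differed by -0.01 (95% interval -0.25 to 0.23, adjusted p = 0.941, edgeR). In the *Cbfa2t3* KD itself *Lmnb2* was at 74.7 and 77.2 CPM in the controls and at 73.3 to 78.1 CPM in the 4 KD libraries, a log2 fold change of -0.02 (95% interval -0.15 to 0.11, adjusted p = 0.894, edgeR). *Lmnb1* there was at 413 and 416 CPM in the controls, at 427 and 430 CPM with sh2 and at 381 and 368 CPM with sh3, a log2 fold change of -0.05 (95% interval -0.22 to 0.12, adjusted p = 0.755, edgeR). The sh2 libraries were above the controls and the sh3 libraries below them. sh3 was lower than sh2 by 0.19 (adjusted p = 0.0366, edgeR), a difference that did not pass when any 1 of the 6 libraries was left out (adjusted p from 0.0626 to 0.224).

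In the *Kdm1a* KD table all 3 lamins were higher in both KD libraries, by less than the limit of 0.5 on the log2 scale. *Lmna* had 315 CPM in the control against 422 and 420 in the KD (log2 difference 0.42). The control and KD values were 386 against 495 and 521 CPM for *Lmnb1* (0.40), and 69.95 against 85.9 and 80.6 CPM for *Lmnb2* (0.25). Of the 5 genes that passed the filter, *Vim* and *Krt75* were past the limit. In 88.8% of all genes the single control lay outside the 2 KD values, and nothing is read from this separation. In the *Gfi1b* KD table no gene passed (0 of 11190 with edgeR, where 784 had an unadjusted p under 0.05, and 59 with DESeq2). *Lmna* was at 194 and 206 CPM in the controls and at 197 and 196 CPM in the KD, *Lmnb1* at 336 and 278 CPM against 218 and 278 CPM, and *Lmnb2* at 56.5 and 57.5 CPM against 45.3 and 56.7 CPM. For *Lmnb1* and *Lmnb2*, the lower value was that of the library labelled KD replicate 1. Without KD replicate 2, *Lmnb1* had a log2 fold change of -0.51 (adjusted p = 0.0109, edgeR), and without KD replicate 1 one of -0.15 (adjusted p = 0.725, edgeR). Each of these fits has 1 KD library and takes its spread from the 2 controls alone, and the library behind the former is the one with more *Gfi1b* RNA than the controls.

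On MEL differentiation 0 of the 3 lamins passed with edgeR or DESeq2, 1 of them with an unadjusted p under 0.05, beside 27.2% of all genes called and 4608 of 11713 with an unadjusted p under 0.05. *Lmnb1* was at 238 and 277 CPM in non-induced and at 189 and 161 CPM in induced cells, a log2 fold change of -0.55 (SE 0.24, edgeR's quasi-likelihood test, Benjamini-Hochberg adjusted p = 0.0990). Its groups did not overlap, as in 67.3% of all genes. *Lmnb2* was at 48.0 and 39.3 CPM against 39.4 and 23.5 CPM (log2 fold change -0.47, adjusted p = 0.258, edgeR). *Lmna* was at 183 and 125 CPM against 212 and 144 CPM (log2 fold change 0.21, adjusted p = 0.601, edgeR). For *Lmna* and *Lmnb2* the values of the 2 arms overlapped, and the intervals (-0.37 to 0.80 and -1.11 to 0.17) do not exclude changes past 0.5.

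**Figure D4:**
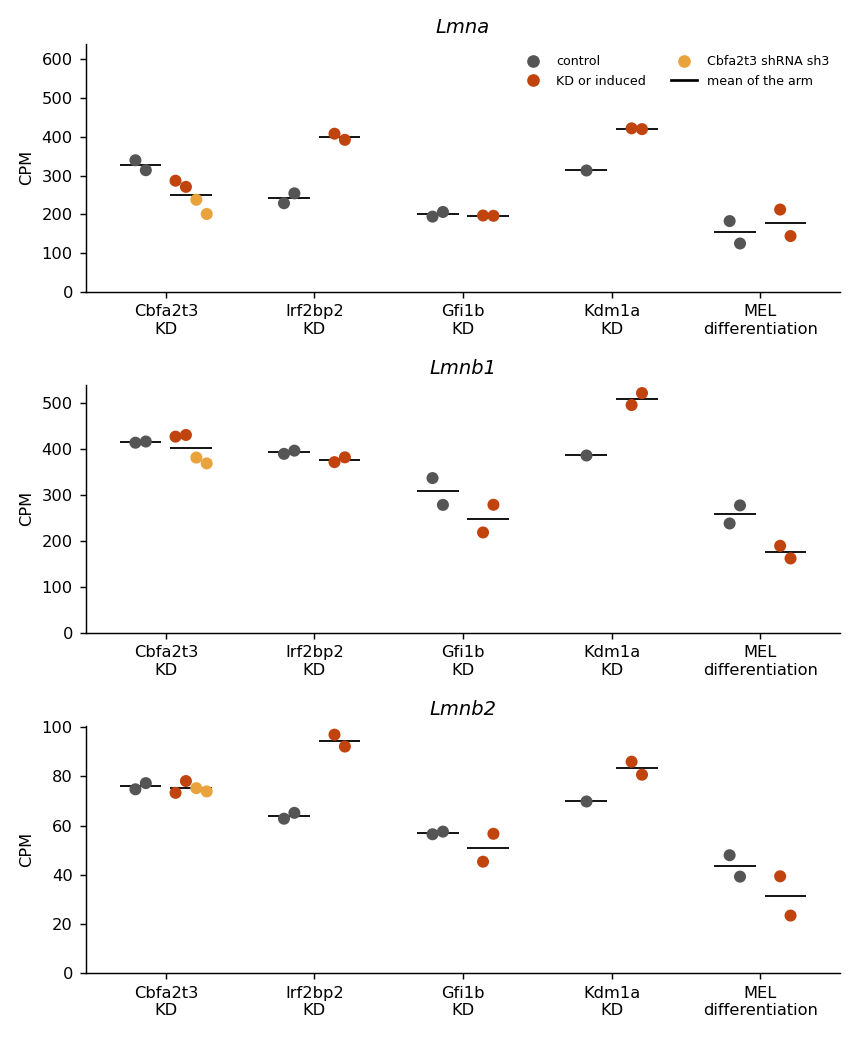
CPM of *Lmna*, *Lmnb1* and *Lmnb2* in all 21 RNA-Seq libraries, on axes that start at 0. Points are libraries and short lines are arm means. *Lmna* lies below its controls in the *Cbfa2t3* KD (201 to 287 CPM) and above them in the *Irf2bp2* KD (392 and 408 CPM), and *Lmnb2* is above its controls in the *Irf2bp2* KD (92.1 and 96.9 CPM).

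**Figure D5:**
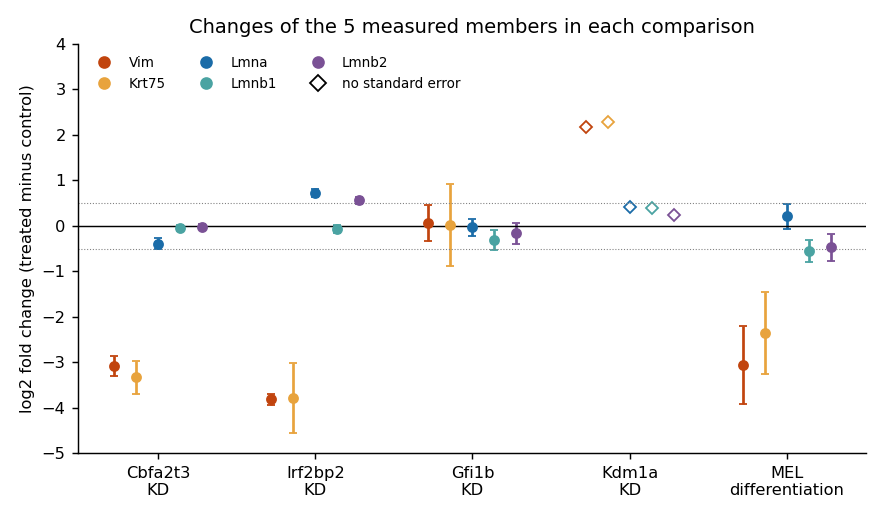
Log2 fold change (treated minus control) of the 5 genes that passed the filter, by comparison. Bars are standard errors from edgeR, open diamonds have none because the *Kdm1a* KD has 1 control, and dotted lines mark 0.5 in either direction. *Vim* and *Krt75* are at or below -2.36 in 3 comparisons and at 2.17 and 2.27 in the *Kdm1a* KD, while the lamins lie between -0.55 and 0.73.

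Other intermediate filament genes were mostly silent: of 36 listed, 6 passed the filter in the *Cbfa2t3* KD table and 7 in the *Irf2bp2* KD table. *Gfap*, the type III filament of astrocytes, rose in the *Cbfa2t3* KD, from a mean of 0.735 to 2.77 CPM (log2 fold change 1.91, edgeR adjusted p = 0.000434), and in the *Irf2bp2* KD, from 0.916 to 5.45 CPM (2.57, adjusted p = 6.52e-08). In the *Kdm1a* KD it was lower in both libraries (log2 difference -0.99). *Gfap* thus had the opposite sign to *Vim* in these 3 tables. The hair keratin gene *Krt74* rose in the *Irf2bp2* KD, from 3.21 to 9.34 CPM (1.53, adjusted p = 1.92e-06, edgeR), was lower in the *Kdm1a* KD (-1.41) and had mean levels of 1.76 CPM in non-induced and 0.142 CPM in induced cells, the latter below 3 counts, so no fold or test is given. *Nes* (nestin) was higher in the *Kdm1a* KD (1.26) from 0.184 to a mean of 0.503 CPM.

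Of the linkers that tie filaments to other structures, 8 passed the filter in each table but that of the *Gfi1b* KD, where 7 did. *Plec*, which encodes plectin, a linker of vimentin to other filaments, had the sign of *Vim* in the *Cbfa2t3*, *Irf2bp2* and *Kdm1a* KDs and on induction. It fell from 279 to 188 CPM in the *Cbfa2t3* KD (-0.57, adjusted p = 0.0167, edgeR) and from 372 to 176 CPM on induction (-1.08, adjusted p = 0.0151), and was higher in the *Kdm1a* KD (0.79). Its value in the *Irf2bp2* KD was -0.43 (adjusted p = 0.00626), short of the limit of 0.5. In the *Irf2bp2* KD, *Tchp* (0.52) and *Fam83h* (0.65) rose while *Jup* (-0.57) fell, in a table where 10.1% of all genes rose and 12.5% fell, and DESeq2 called 2 genes of this list. *Sync* passed the filter through the controls alone (0.514 against 0.188 CPM) and is given with no test. *Jup*, which encodes plakoglobin, was higher in the *Kdm1a* KD (1.04). The median of this list was -0.26 in the *Cbfa2t3* KD, -0.37 in the *Irf2bp2* KD, 0.26 in the *Gfi1b* KD, -0.00405 in the *Kdm1a* KD and -0.52 on induction, beside medians of all genes between -0.02 and 0.02.

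Among 19 measured partners of the lamina in the nuclear envelope, edgeR called 0 in the *Cbfa2t3* KD (3 had an unadjusted p under 0.05, and DESeq2 called 0), beside 5.74% of all genes. In the *Irf2bp2* KD 3 rose and none fell. These were *Lbr*, the lamin B receptor (292 to 434 CPM, 0.57, edgeR adjusted p = 4.59e-05), *Sun1*, a linker of the lamina to the cytoskeleton (124 to 183 CPM, 0.56, adjusted p = 3.57e-05), and *Lemd2*, a membrane protein of the LEM family (59.6 to 88.5 CPM, 0.57, adjusted p = 0.000427). On induction, *Sun2* (1.25), *Tor1aip2* (0.83) and *Lemd2* (0.72) rose and *Banf1* (-0.86), a chromatin-binding partner of LEM proteins, fell, so 3 of 19 rose and 1 fell beside 12.4% and 14.8% of all genes (DESeq2 called 6). The nesprin genes *Syne2* (1.06) and *Syne3* (0.65) were higher in the *Kdm1a* KD. All 6 genes of lamin processing were measured, of which 0 were called in the *Cbfa2t3* KD (2 with an unadjusted p under 0.05, 0 with DESeq2), again beside 5.74% of all genes. In the *Irf2bp2* KD *Fntb*, a subunit of the farnesyltransferase, and *Icmt*, the carboxyl methyltransferase, rose (0.93 and 0.56, adjusted p = 5.13e-07 and 2.58e-05, edgeR) and *Zmpste24*, the protease that matures prelamin A, fell (-0.51, adjusted p = 9.24e-05). *Narf*, which encodes a prelamin A binding protein, rose on induction from 128 to 314 CPM (1.29, adjusted p = 0.00274, edgeR). In the *Gfi1b* KD 0 genes of these lists were called by edgeR or DESeq2, with an unadjusted p under 0.05 for 1 other filament gene, 0 linkers, 1 lamina partner and 1 processing gene. With 3 of 19 and 2 of 6 genes called as risen in the *Irf2bp2* KD beside 10.1% of all genes, these shares are given as counts only.

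The genes whose pattern over the 21 libraries was most like each member were found by Pearson's r of log2 CPM minus the mean of the controls of the same table, over 11053 genes. The libraries of a table share their controls, and r describes these libraries only. For *Vim* they were *Fcgr3* (r = 0.98), *Meis1* (0.97), *Psen2* (0.97), *Angpt1* (0.97) and *Fcgr2b* (0.96). *Angpt1* was at -2.02 in the *Cbfa2t3* KD, -2.96 in the *Irf2bp2* KD, 2.11 in the *Kdm1a* KD and -4.13 on induction, against -3.07, -3.81, 2.17 and -3.06 for *Vim*. For *Krt75* they were *Rgs18* (0.93), *Elf1* (0.93) and *Tec* (0.93), for *Lmna* *Crip1* (0.91), *Gpx4* (0.90) and *Slc4a2* (0.88), for *Lmnb1* *Snhg5*, *Tma16* and *Bag1* (0.93, 0.93 and 0.92), and for *Lmnb2* *Dynll1*, *Csk* and *Fasn* (0.95, 0.95 and 0.93). Among the members, *Vim* and *Lmnb1* had an r of 0.64 and *Vim* and *Lmna* 0.14. That of *Vim* and *Krt75* was 0.85, which the choice of both by their falls in the KDs builds in.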

How the data were processed

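RNA-Seq was measured in 21 libraries of MEL cells, and the authors deposited, per gene, raw counts and RPKM values together with columns of their own comparisons (log2 ratios of groups and p-values, raw and adjusted), which were not used. Per the labels and the study's methods, the authors aligned reads to mm9 with TopHat2 and tested with DESeq2. Whether the counting used strand is not given in the sources used here. The deposited site table gives the authors' fold (ratio of ChIP to control reads) for ETO2 and IRF2BP2 sites, and its class codes 0, 1 and 2 were taken, from the class sizes, to mean ETO2 alone, both factors and IRF2BP2 alone. The 4 other columns of the site table were not used. The GFI1B and LSD1 ChIP-Seq samples were not analysed here.

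Counts were tested with edgeR 4.0.16 (glmQLFit and glmQLFTest, TMM scaling, filterByExpr, 1 table at a time, both *Cbfa2t3* shRNAs pooled, no block). A gene was called at a Benjamini-Hochberg adjusted p of at most 0.05 over all genes tested and a log2 fold change of at least 0.5 in size. CPM are counts over TMM-scaled library size. The *Kdm1a* KD has 1 control, so a gene was called where both KD libraries differed from it by at least 0.5 in the same direction on log2 CPM (prior count 2), with no test. sh3 was compared with sh2 by a contrast in a fit of 3 groups. Sites were assigned by distance to gene starts of GENCODE vM1 (mm9), and windows were read from the mm9 genome. Tested on simulated data with 200 genes changed by 1 on the log2 scale, the *Cbfa2t3* KD script recovered 178, the *Irf2bp2* KD 180, the *Gfi1b* KD 18 and MEL differentiation 51. No pair of libraries held equal counts.

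The members, the gene lists and the tests were chosen with earlier results of these data known. The genes named are the 7 members in every comparison, the called genes of 4 lists (at most 6 a list, by size of change), the genes most like each member and the 4 targeted genes. Marker genes of other cell types (*Gata1*, *Tfrc*, *Hbb-b1*, *Thy1*, *Pdgfrb*, *Col1a1*, *Dcn*, *Lum*, *Spi1*, *Ppbp*, *Gp1bb*, *Itga2b* and *Epcam*) and the uncalled value of *Plec* in the *Irf2bp2* KD were named after their values had been seen. Alternatives were DESeq2 1.42.0, its size factors in edgeR, no filter, at least 10 counts in every library, no fold limit, each shRNA alone, the replicate number as a block and each library left out in turn. R 4.3.3 and Python 3.11.15 were used.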

Additional observations from a re-analysis of the deposited data

Results flagged for a closer look

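A test of the difference between groups singled out 4 results. Within the *Cbfa2t3* KD, the log2 difference of sh3 minus sh2 was -0.35 for *Lmna* (edgeR adjusted p = 0.0160) and -0.19 for *Lmnb1* (adjusted p = 0.0366). Neither reached the fold limit of 0.5, and the adjusted p was 0.138 for *Lmna* without sh3 replicate 2 and 0.0626 to 0.224 for *Lmnb1* with any 1 library left out. *Cbfa2t3* RNA itself was lower with sh3 by 0.73, and whether this bears on the lamins was not tested. Between the knockdowns, the effect of the *Irf2bp2* KD exceeded that of the *Cbfa2t3* KD by 1.12 for *Lmna* (adjusted p = 0.00101, from 0.000179 to 0.0107) and by 0.58 for *Lmnb2* (adjusted p = 0.000830, from 0.000596 to 0.00889), with edgeR and for both genes in every setting run. The 2 tables were made from separate libraries, and shRNA, target and table cannot be told apart in this difference.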

How the results depend on the processing

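Of 461 values under an alternative, 414 were labelled as the same. For counts of genes or members this means a count close to the main one. For tested differences it means the same direction and the same side of the threshold. For values with no test it means a shift smaller than the SD within groups, which can include a turn of sign. With no fold limit, the genes called numbered 1423 in the *Cbfa2t3* KD and 5810 in the *Irf2bp2* KD, and sh3 alone called 1145. With at least 10 counts in every library, 1 member was called in the *Cbfa2t3* KD, because *Krt75* is then left out (the 2 counted otherwise are *Vim* and *Krt75*, whose KD values carry no test). In the *Gfi1b* KD, DESeq2 called 59 genes and edgeR without a filter 411. On induction DESeq2 called 0 members. Leaving out 1 library gave 279 to 797 genes called in the *Cbfa2t3* KD (279 without control replicate 1, 360 without replicate 2), 0 to 3148 in the *Gfi1b* KD (396 without KD replicate 1, 3148 without KD replicate 2) and 1522 to 3369 on induction (1626 and 1522 without non-induced replicates 1 and 2, 1772 without induced replicate 2). Members called then ranged from 0 to 2 in the *Gfi1b* KD (in fits with 1 KD library whose spread comes from the controls alone, and counting *Vim*, whose KD values carry no test), 0 to 1 on induction and 0 to 1 for sh3 against sh2 (0 without sh2 replicate 2), where the member counted is *Vim* and again carries no test. The causes were not tested.

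In the *Gfi1b* KD, *Vim* turned from 0.06 to -0.78 without KD replicate 2 and -0.09 with the block, and *Krt75* from 0.016 to -1.36 without KD replicate 2, -0.12 without control replicate 2 and -0.26 with the block. *Krt75* for sh3 against sh2 turned from -0.31 to 0.30 without sh3 replicate 1. The other directions that turned were of lamins not called in the comparison as reported. *Lmnb1* was at 0.044 with sh2 alone. Leaving out 1 library moved *Lmnb2* in the *Cbfa2t3* KD between -0.044 and 0.0071, *Lmna* in the *Gfi1b* KD between -0.074 and 0.0051, *Lmna* on induction between -0.10 and 0.50, *Lmnb2* for sh3 against sh2 between -0.068 and 0.023, and the *Lmnb1* difference between the KDs between -0.048 and 0.021 (0.0058 without a filter).

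Replicate numbers are shared by the groups, but with 2 pairs a comparison the libraries share only a number (correlation of deviations from 0.00153 to 0.252). With the replicate number as a block, 632 genes were called in the *Cbfa2t3* KD, 2834 in the *Irf2bp2* KD, 0 in the *Gfi1b* KD and 3916 on induction, and no member's call changed. Depth limits *Krt8* and *Krt18* throughout, and *Krt75* in part.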
